A study of Mus musculus with 15 samples.

Results

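Calcineurin, its NFAT targets and its RCAN regulators were followed through 9 genes in MH-S cells, an SV40-transformed murine alveolar macrophage line. The genes were Rcan1, Rcan3, Nfatc2, Nfatc3, Nfat5, Ppp3ca, Ppp3cb, Ppp3cc and Ppp3r1, taken by symbol from the 78317 gene identifiers of the count table. Rcan1 was put on the list because of its level with CaP microrods, so its values in that contrast are a description and were not tested. The 15 RNA-seq libraries fell into 5 groups of 3. M0 cells received no stimulus. Cells of the CaP group were kept for 24 h with calcium phosphate microrods (CaP-Alg-Prot/CMC(3DL)) at 0.1 mg/mL, and those of the SiO2 group with silica microrods of the same build (SiO2-Alg-Prot/CMC(3DL)) at the same concentration and time. Each rod type came from 3 separately made batches, and equal mass does not mean equal numbers of rods. M1 cells were polarized for 24 h with 1 µg/mL LPS plus 20 ng/mL IFN-γ, and M2 cells for 24 h with IL-4 at 20 ng/mL. All libraries came from the same cell line, and per the study each rod batch was given to its own well of cells from a single passage, so the p-values measure the spread between wells and batches and not between independent cultures. In such bulk samples, fewer responding cells cannot be told apart from less RNA per cell.

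Calcineurin is the phosphatase that couples a rise of cytosolic calcium to gene expression. It pairs a catalytic A subunit (encoded by Ppp3ca, Ppp3cb or Ppp3cc) with a calcium-binding B subunit (Ppp3r1), is switched on by calcium, and removes phosphates from NFAT proteins, which then enter the nucleus. RCAN proteins bind calcineurin and restrain it, and a transcript of Rcan1 that starts at an internal promoter is itself switched on by NFAT, which makes Rcan1 a widely used readout of the pathway. In macrophages and their relatives, NFAT activity is best known from the formation of osteoclasts.

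The Rcan1 promoters are shown because both starts feed the same gene-level count, so the values below do not tell them apart. The windows cover 250 bases before to 50 bases after each start in RefSeq (GRCm38.p6, minus strand, printed 5′ to 3′ along the gene), at chr16:92466120-92466419 for the upstream start and chr16:92400029-92400328 for the internal one, 66091 bases apart. Capitals mark the NFAT core motif GGAAA, searched on both strands, where TTTCC is the motif on the opposite strand.
Rcan1, upstream start: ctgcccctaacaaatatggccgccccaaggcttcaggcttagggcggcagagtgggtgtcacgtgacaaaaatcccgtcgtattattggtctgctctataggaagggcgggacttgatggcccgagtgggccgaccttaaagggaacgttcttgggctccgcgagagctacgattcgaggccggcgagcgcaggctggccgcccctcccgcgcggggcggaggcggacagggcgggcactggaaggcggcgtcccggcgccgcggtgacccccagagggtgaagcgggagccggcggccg
Rcan1, internal start: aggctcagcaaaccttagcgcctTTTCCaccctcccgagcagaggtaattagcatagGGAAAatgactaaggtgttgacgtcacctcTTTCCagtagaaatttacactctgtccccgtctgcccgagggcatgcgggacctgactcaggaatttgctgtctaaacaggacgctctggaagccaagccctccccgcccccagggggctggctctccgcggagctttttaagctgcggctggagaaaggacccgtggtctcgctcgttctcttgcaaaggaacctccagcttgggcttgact
The upstream window held 0 matches and the internal window held 3, all between 227 and 163 bases before the start. Of 32851 RefSeq promoters of 300 bases, 61.3% held at least 1 match and 9.42% at least 3. Promoters were listed for 7 of the 9 genes, and 7 of their 10 windows held a match, from 1 in Rcan3 to 4 in Ppp3cb, with 0 in Ppp3r1. Ppp3ca and Ppp3cc were not matched.

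Total counts per library ran from 8459643 to 68750050, and 1 count was worth 0.0143 to 0.132 CPM (counts scaled to a common library size). All 7 macrophage markers were detected, at a summed 2018 to 4244 CPM, lowest in M2 with 2018 to 2803 CPM. Of the 7 alveolar macrophage markers, 5 reached 10 counts in some library, while Ear2 had 0 counts, Car4 at most 2 and Siglecf at most 15. The list summed to 3.00 to 6.18 CPM, so the labelled alveolar identity was weakly represented. Its sum was 3.00 to 3.94 CPM in M0, 4.70 to 6.18 CPM with CaP rods and 3.28 to 5.59 CPM with SiO2 rods. It was 4.30 to 6.12 CPM in M1 and 4.47 to 5.05 CPM in M2. No epithelial, T cell or fibroblast marker reached 10 counts, while 1 of 4 B cell markers, Cd79b, did, and that list was highest in M1 with 9.04 to 14.4 CPM against 0.463 to 1.08 CPM in M0. The libraries farthest from their group mates were M2 replicate 2, M0 replicate 3 and M2 replicate 3, at root-mean-square log2 distances of 1.26, 1.04 and 0.938 over all genes, with 0.436 to 0.814 for the rest. M0 replicate 3 was also the shallowest library.

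Rcan1 (ENSMUSG00000022951) was high in the CaP libraries and lay between 4.34 and 10.2 CPM in the other 12. The 3 M0 libraries held 4.61, 6.24 and 4.40 CPM, a mean of 5.09 ± 1.01 (SD, n = 3). The CaP libraries held 33.8, 72.8 and 79.9 CPM, a mean of 62.2 ± 24.9 (SD, n = 3). Every CaP library lay above all others, and CaP replicate 1 was lower than its mates but still well above the highest SiO2 library. The log2 fold change between CaP and M0 was 3.61 (SE 0.35), 12.2-fold, and between CaP and SiO2 it was 2.87 (SE 0.33), 7.30-fold. Leaving out any single library kept the former between 3.36 and 3.89 and the latter between 2.63 and 3.16. These values are what Rcan1 was chosen for.

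**Figure D1:**
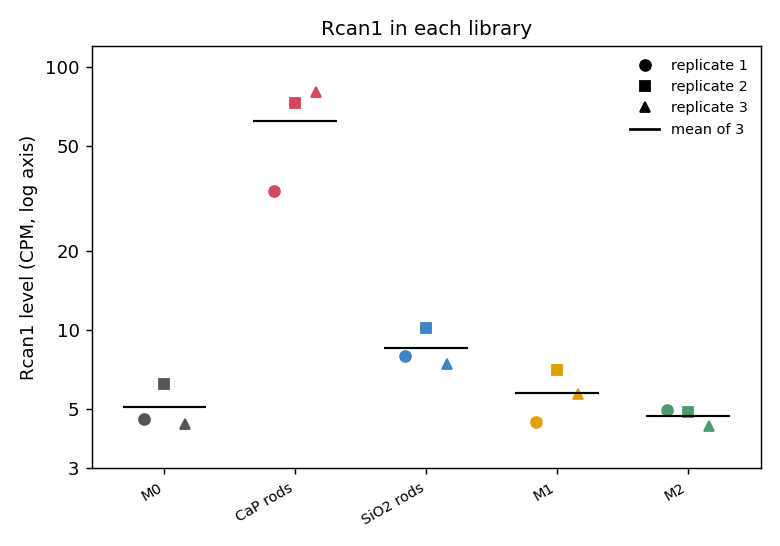
Rcan1 level in CPM (log axis) in each of the 15 libraries, by group, with the mean of 3 as a line and the replicate number as the marker. The CaP libraries sit at 33.8 to 79.9 CPM and all others at 4.34 to 10.2 CPM.

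The contrasts of SiO2 rods and of the polarizing agents with M0 were not part of that choice and were tested. The SiO2 libraries held 7.98, 10.2 and 7.45 CPM of Rcan1, a mean of 8.55 ± 1.47 (SD, n = 3). All lay above the M0 libraries, but the log2 fold change of 0.74 (SE 0.34, 95% interval -0.02 to 1.49) did not pass the test at an adjusted p of 0.545. Throughout, a gene was counted as a differentially expressed gene (DEG) at an edgeR adjusted p below 0.05 over all genes and an absolute log2 fold change above 0.5. Under this rule 10 of 16621 genes, 0.0602%, were DEGs between SiO2 and M0 (0.0541% higher, 0.00602% lower), and Rcan1 was not among them.

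M1 cells held 4.47, 7.04 and 5.73 CPM of Rcan1, and M2 cells 4.98, 4.87 and 4.34 CPM. Both sets overlapped M0. The log2 fold change against M0 was 0.18 in M1 (95% interval -0.51 to 0.87, adjusted p = 0.737) and -0.12 in M2 (95% interval -0.81 to 0.56, adjusted p = 0.892). Neither passed the test, and both intervals lie below 1, a doubling. M1 and M2 themselves differed by 0.31 (95% interval -0.39 to 1.00, adjusted p = 0.536). The sign of the M1 value turned to -0.0036 without M1 replicate 2, and that of M2 to 0.045 without M0 replicate 2. By mean level the order was CaP, SiO2, M1, M0 and M2, and the last 3 did not differ beyond their spread. The SiO2 libraries lay above those of M1, a pair that was not tested. The M0 libraries are shared by all comparisons against M0, so these are not independent of each other.

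The other 8 genes showed no DEG with either rod type. Between CaP and M0, 68 of 16621 genes, 0.409%, were DEGs (0.289% higher, 0.12% lower), and 0 of the 8 were. DESeq2 also gave 0 DEGs. Of the 8, 2 had an unadjusted edgeR p below 0.05 (Nfatc2 and Nfat5, both lower), as had 2985 of the 16621 genes. The median log2 fold change of the 8 was -0.35, against 0.06 over all genes. With SiO2 rods, 0 of the 9 were DEGs by edgeR or DESeq2. Again 2, Nfatc2 and Nfat5, were below an unadjusted p of 0.05, as were 1540 of the 16621 genes. The median of the 9 was -0.15 against -0.02 over all genes. Between CaP and SiO2, where 4 genes or 0.0241% were DEGs (0.018% higher, 0.00602% lower with CaP rods), 0 of the 8 were DEGs by either tool and 0 reached an unadjusted p of 0.05. Over all genes, 310 reached it between CaP and SiO2. The same counts over all genes stand beside the unadjusted p-values given for rods below. The 8 log2 fold changes there lay between -0.18 and 0.09, at a median of -0.0034 against 0.03 over all genes, while Rcan1 stood at 2.87.

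**Figure D2:**
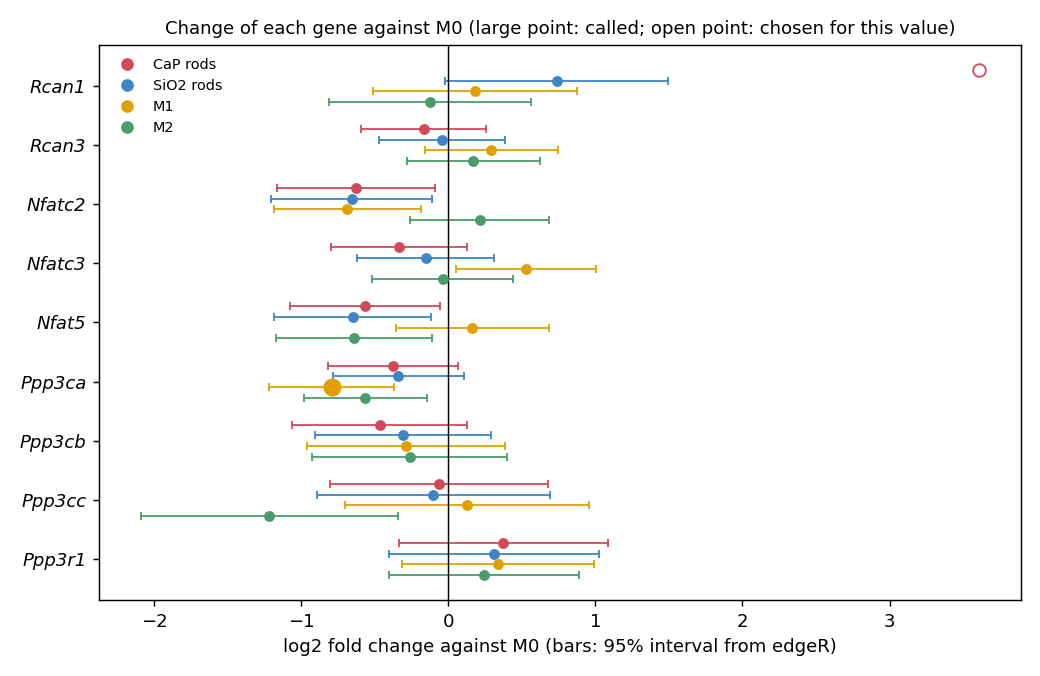
Log2 fold change against M0 of each gene with CaP rods, SiO2 rods, M1 and M2 stimulation, with 95% intervals. The open point is Rcan1 with CaP rods at 3.61, given without an interval because the gene was chosen for it, and the single large point is the DEG Ppp3ca in M1 at -0.79.

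Rcan3 (ENSMUSG00000059713), which encodes a relative of RCAN1 that also binds calcineurin, did not share the pattern. It held 9.48, 11.97 and 11.6 CPM in M0 and 9.35, 10.1 and 9.77 CPM with CaP rods, overlapping sets with a log2 fold change of -0.17 (95% interval -0.59 to 0.25, adjusted p = 0.682). Levels were 9.51 to 12.8 CPM with SiO2 rods, 10.8 to 15.7 CPM in M1 and 9.77 to 14.9 CPM in M2. All groups overlapped M0. The CaP interval puts the change of Rcan3 below 0.25 on the log2 scale, where Rcan1 stood at 3.61. Per kilobase of exon, the 2 genes were at like levels in M0, 1.65 CPM per kb for Rcan1 and 2.15 for Rcan3, and apart with CaP rods, 20.2 for Rcan1 and 1.91 for Rcan3. The third gene of the family, Rcan2, had at most 1 count in any library.

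**Figure D3:**
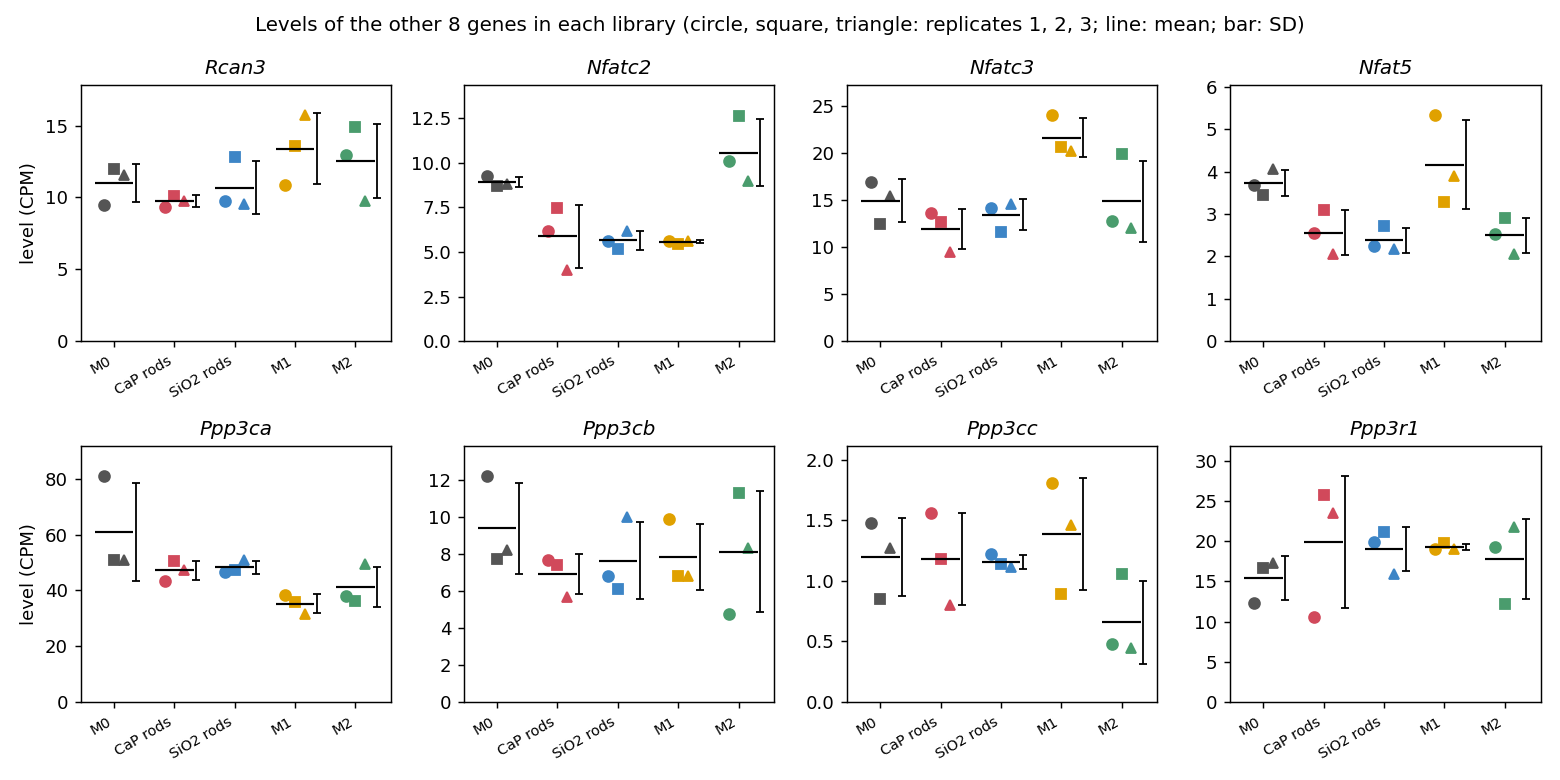
Level in CPM of the other 8 genes in each library, by group, with the mean as a line and the SD as a bar (n = 3). In no panel do all CaP libraries stand above the other groups, and Ppp3ca is lowest in M1 at 31.7 to 38.5 CPM.

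The catalytic subunit genes were led by Ppp3ca (ENSMUSG00000028161), the A-alpha gene. Per kilobase, its M0 level was 6.10 CPM against 1.07 for Ppp3cb (A-beta) and 0.401 for Ppp3cc (A-gamma), and it was the highest of the 3 in every group. Ppp3ca held 81.1, 50.8 and 50.8 CPM in M0 and 43.5, 50.6 and 47.5 CPM with CaP rods. These sets missed each other only narrowly, and the log2 fold change of -0.38 (adjusted p = 0.348) did not pass. The SiO2 libraries held 46.8 to 50.8 CPM, and their change of -0.34 (adjusted p = 0.652) did not pass either.

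M1 stimulation lowered Ppp3ca. The M1 libraries held 38.5, 35.7 and 31.7 CPM, all below the 3 M0 libraries, with a log2 fold change of -0.79 (SE 0.20, adjusted p = 0.0157), 0.577 times the M0 level. It was the only DEG of the 9 between M1 and M0, where 2342 of 16654 genes, 14.1%, were DEGs (9.7% higher, 4.37% lower), so 1 of 9 is near the background. The call rested on single libraries. Without M0 replicate 1, which stood well above its mates, the value was -0.55 (adjusted p = 0.0622), and it was -0.80 (0.0541) without M1 replicate 2 and -0.72 (0.0725) without M1 replicate 3. Fitted on the M0 and M1 libraries alone it was -0.84 (adjusted p = 0.0531). In M2 the libraries held 38.0, 36.1 and 49.5 CPM, also all below M0, with a change of -0.56 that did not pass (adjusted p = 0.139). M1 and M2 differed by -0.23 (adjusted p = 0.437) and overlapped.

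Ppp3cb (ENSMUSG00000021816) was at 7.74 to 12.2 CPM in M0 and changed by -0.47 with CaP rods, -0.31 with SiO2 rods, -0.29 in M1 and -0.26 in M2 on the log2 scale, with adjusted p-values from 0.385 to 0.789. Its CaP libraries, at 5.71 to 7.69 CPM, lay just below the M0 libraries, and its other groups overlapped M0. Ppp3cc (ENSMUSG00000022092) was scarce, with 7 to 76 counts a library and at least 10 in 13 of 15. It held 1.48, 0.846 and 1.27 CPM in M0, near 1.56, 1.18 and 0.797 CPM with CaP rods. In M2 it held 0.478, 1.05 and 0.444 CPM, a change of -1.22 that did not pass against M0 (adjusted p = 0.124). Against M2, M1 was higher by 1.34 (SE 0.43, adjusted p = 0.0478), although the M1 libraries, at 1.81, 0.889 and 1.46 CPM, overlapped those of M2. The call was lost with DESeq2 (adjusted p = 0.0733), with the size factors of DESeq2 in edgeR (0.0586), with the replicate block (0.0584), with the older quasi-likelihood method (0.0759), with no filter on low counts (0.117) and on the M1 and M2 libraries alone (0.147). It was also lost without M0 replicate 3, CaP replicate 2, SiO2 replicate 1, 2 or 3, M1 replicate 1 or 3, or M2 replicate 1 or 3 (0.0594 to 0.323).

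Ppp3r1 (ENSMUSG00000033953), the gene of the calcium-binding B subunit, stood at 4.77 CPM per kb in M0, near Ppp3ca. It held 12.3, 16.7 and 17.3 CPM in M0 and 10.6, 25.7 and 23.5 CPM with CaP rods. CaP replicate 1 was the lowest of these 6 libraries and the other two the highest, and the log2 fold change of 0.37 (95% interval -0.34 to 1.08) did not pass (adjusted p = 0.573). CaP replicate 1 was also the CaP library with the least Rcan1. The SiO2, M1 and M2 values were 0.31, 0.34 and 0.24, with adjusted p-values of 0.839, 0.495 and 0.754. The M1 libraries, at 19.0 to 19.8 CPM, all lay above M0. The other B subunit gene, Ppp3r2, known from testis, had at most 1 count in any library.

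Of the NFAT genes, Nfatc2 (ENSMUSG00000027544) lay below M0 with both rod types and in M1, with no difference past the threshold. It held 9.27, 8.72 and 8.80 CPM in M0, and 6.17, 7.49 and 3.99 CPM with CaP rods. The SiO2 libraries held 5.63, 5.14 and 6.18 CPM and the M1 libraries 5.59, 5.47 and 5.64 CPM. All 9 libraries of these groups lay below all M0 libraries. The log2 fold changes against M0 were -0.63 with CaP rods (adjusted p = 0.219), -0.66 with SiO2 rods (0.478) and -0.69 in M1 (0.0643), all against the same 3 M0 libraries, which lay close together. The M1 value passed with DESeq2 (adjusted p = 0.0331) and with at least 10 counts required in every library (0.0407). It also passed without CaP replicate 2, CaP replicate 3 or M2 replicate 2 (0.0206 to 0.0490). Each of these fits gave 2 DEGs. On the M0 and M1 libraries alone Nfatc2 passed (0.0474) and Ppp3ca did not (0.0531), which gave 1 DEG. M2 cells held 10.1, 12.6 and 8.99 CPM, overlapping M0, with a change of 0.21 (adjusted p = 0.692).

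M1 and M2 differed in Nfatc2 by -0.90 (SE 0.23, adjusted p = 0.0163), with all M1 libraries below all M2 libraries. Without M1 replicate 1 or 2 the adjusted p was 0.0501 or 0.0582. Between M1 and M2, 2679 genes or 16.1% were DEGs (10.6% higher, 5.46% lower in M1), and of the 9 genes Nfatc2 was lower in M1, while Nfat5 and Ppp3cc were higher, 3 of 9. That count fell to 1, Nfatc2, without M0 replicate 3, any of SiO2 replicates 1 to 3, M1 replicate 3, M2 replicate 1 or M2 replicate 3, and to 0 without M1 replicate 1. On the M1 and M2 libraries alone, or with no filter on low counts, it was also 0, with Nfatc2 at adjusted p-values of 0.0516 and 0.0520.

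Nfat5 (ENSMUSG00000003847) is the family member known for the response to osmotic stress, and its protein lacks the calcineurin-binding region of the others. It was the lowest of the 9 genes per kilobase, at 0.203 CPM per kb in M0. M0 libraries held 3.69, 3.45 and 4.05 CPM, CaP libraries 2.54, 3.09 and 2.04 CPM, and SiO2 libraries 2.25, 2.72 and 2.18 CPM. M2 libraries held 2.52, 2.90 and 2.06 CPM. These 3 groups lay wholly below M0, at -0.56 (adjusted p = 0.239), -0.65 (0.471) and -0.64 (0.190) on the log2 scale, and none passed. M1 libraries held 5.33, 3.28 and 3.89 CPM and overlapped M0. M1 exceeded M2 by 0.80 (SE 0.25, adjusted p = 0.0440), with no overlap, and this call was lost in 9 of the 15 fits that left out 1 library, those without M0 replicate 2 or 3, SiO2 replicate 1, 2 or 3, M1 replicate 1 or 3, or M2 replicate 1 or 3 (adjusted p = 0.0543 to 0.231). It was also lost with the replicate block (0.0692), with the older quasi-likelihood method (0.0591), with no filter on low counts (0.294) and on the M1 and M2 libraries alone (0.184).

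Nfatc3 (ENSMUSG00000031902) held 17.0, 12.5 and 15.4 CPM in M0 and 13.6, 12.7 and 9.49 CPM with CaP rods, overlapping sets with a change of -0.33 (adjusted p = 0.430). It was highest in M1, where the libraries held 24.1, 20.7 and 20.2 CPM, all above M0 and M2. The M1 changes of 0.53 against M0 (adjusted p = 0.134) and 0.57 against M2 (0.104) did not pass, and the latter passed without M2 replicate 2 at 0.70 (0.0268). SiO2 and M2 libraries overlapped M0. Nfatc1, the NFAT gene best known from osteoclasts, was not among the 9 and held 11.8 to 12.5 CPM in M0 and 8.59 to 12.8 CPM with CaP rods, a log2 fold change of -0.11 (adjusted p = 0.846). It was lowest in M1 at 7.57 to 9.04 CPM, a change of -0.50 (adjusted p = 0.152). Nfatc4 had at most 3 counts in any library.

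Rcan1 was chosen for its CaP level, so its lack of overlap with CaP rods is a description and was not counted. Of the other 8 genes, libraries did not overlap between CaP and M0 for Nfatc2, Nfat5, Ppp3ca and Ppp3cb, where 17.4% of all genes did not. Between CaP and SiO2 all of the 8 overlapped, at a background of 8.1%. Counted over the 9 genes, libraries did not overlap for 3 between SiO2 and M0 (Rcan1, Nfatc2 and Nfat5), where 18% did not. The counts were 4 for M1 against M0 (Nfatc2, Nfatc3, Ppp3ca and Ppp3r1; background 32.2%), 2 for M2 against M0 (Nfat5 and Ppp3ca; 15.2%) and 3 for M1 against M2 (Nfatc2, Nfatc3 and Nfat5; 29.4%). Between M2 and M0, 687 genes or 4.13% were DEGs (2% higher, 2.13% lower), and 0 of the 9 were, by edgeR or DESeq2. Of the 9, 3 had an unadjusted edgeR p below 0.05 (Nfat5, Ppp3ca and Ppp3cc, all lower), as had 2862 of the 16654 genes.

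The NFAT kinases, regulators and other substrates gave no DEG with rods in edgeR, and 1, Dyrk1a with CaP rods, in DESeq2. DESeq2 called 4.05% of all genes between CaP and M0. The 7 kinase genes that return NFAT to the cytosol (Gsk3a, Gsk3b, Csnk1a1, Csnk1d, Csnk1e, Dyrk1a and Dyrk2) gave 0 DEGs with either rod type, with 2 unadjusted p-values below 0.05 for each against M0 (Dyrk1a and Gsk3b). Dyrk1a held 26.6 to 48.9 CPM with CaP rods against 55.0 to 100.2 CPM in M0, a log2 fold change of -0.96 (adjusted p = 0.142). Csnk1e, casein kinase 1 epsilon, was a DEG in M2, where 2.13% of all genes were lower, at 15.6 to 17.4 CPM against 25.9 to 31.3 CPM in M0, a change of -0.84 (adjusted p = 0.0235). It was higher in M1 than in M2 by 1.00 (adjusted p = 0.0024), where 10.6% of all genes were higher.

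Of the regulators of calcineurin or NFAT, 7 of 8 were tested and 0 were DEGs with either rod type (1 unadjusted p below 0.05 for each against M0, Chp1 with CaP rods and Homer3 with SiO2 rods). M1 raised 2 of the 7, where 9.7% of all genes were higher. Chp1, a calcineurin B-like protein that inhibits the phosphatase, rose from 4.74 to 7.15 CPM in M0 to 13.9 to 17.0 CPM, a change of 1.28 (adjusted p = 0.0016). Akap5, a scaffold that holds calcineurin at membranes, rose from 6.11 to 17.9 CPM to 41.3 to 67.7 CPM, a change of 2.08 (adjusted p = 0.0498). Against M2, M1 was higher in Chp1 by 0.82 (adjusted p = 0.0196) and in Lrrk2 by 0.85 (adjusted p = 0.0384), where 10.6% of all genes were higher. Lrrk2, a kinase reported to restrain NFAT, did not pass there in DESeq2. Akap5 was not a DEG in M1 with the size factors of DESeq2. The median of the list was 0.15 with CaP rods, 0.10 with SiO2 rods and 0.20 in M1.

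Of 8 other calcineurin substrates, 0 were DEGs with rods (1 unadjusted p below 0.05, Mef2a with CaP rods). Mef2a and Mef2c, transcription factors that calcineurin dephosphorylates, fell in M1 by 0.97 (adjusted p = 0.0037) and 0.96 (0.0029) on the log2 scale, where 4.37% of all genes were lower. Mef2a also fell in M2, by 1.04 (adjusted p = 0.0061), where 2.13% of all genes were lower.

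A list of 25 genes known to respond to calcineurin and NFAT in immune cells or osteoclasts was written with some of its CaP values already known, so its counts are not independent of these data. With CaP rods 13 were tested, 4 were higher and 0 lower, where 0.289% and 0.12% of all genes were, at a median log2 fold change of 0.97 against 0.06 over all genes. Atp6v0d2, a proton pump subunit of osteoclasts, rose from 0.527 to 1.11 CPM in M0 to 12.1 to 15.8 CPM, a change of 4.29 (adjusted p = 0.00061). The chemokine genes Ccl3 and Ccl4 rose by 1.52 (adjusted p = 0.0028) and 1.85 (0.0072). Ctsk, the cathepsin of osteoclasts, passed the test with 14 to 51 counts a CaP library against 1 to 3 counts in M0, too few for a fold. It passed the filter on low counts only through the rod libraries, so the 4 include a gene whose outcome that filter favoured. DESeq2, which called 4.05% of all genes between CaP and M0, called Atp6v0d2, Ccl3, Ccl4, Egr2 and Tnf and not Ctsk. Egr2 held 2.85 to 10.5 CPM with CaP rods against 2.11 to 3.25 CPM and changed by 1.47 (adjusted p = 0.162), and Egr3, another early NFAT target, by 0.06 (adjusted p = 0.932).

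With SiO2 rods 1 of the 13 was a DEG, where 0.0602% of all genes were, namely Atp6v0d2, at 4.12 to 4.99 CPM and a change of 2.62 (adjusted p = 0.0250). DESeq2, which called 0.806% of all genes, added Ccl4. The median was 0.48 against -0.02 over all genes. Between CaP and SiO2, 0 of the 13 were DEGs, with 5 unadjusted p-values below 0.05. DESeq2 gave 3 (Atp6v0d2, Ccl3 and Ccl4), where it called 0.0963% of all genes. The 2 groups differed in Rcan1 by 2.87, and in Atp6v0d2 by 1.67 without passing (adjusted p = 0.0946).

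In M1, where Rcan1 stood at 0.18, 9 of 16 tested genes of this list were DEGs, 7 higher and 2 lower, where 14.1% of all genes were DEGs (9.7% higher, 4.37% lower). Ptgs2, the inducible cyclooxygenase, rose to 39.0 to 42.9 CPM from 3 to 4 counts a library in M0. Ccl3 and Ccl4 rose by 2.96 (adjusted p = 2.7e-07) and 3.29 (3.1e-07), and Tnf by 2.09 (0.00031). Il10, Csf2 and Acp5 had at most 5 counts a library in M0 and passed the test at 1.46 to 2.92, 0.684 to 1.29 and 2.24 to 3.21 CPM in M1. They passed the filter on low counts only through M1 and were not tested with rods. The 9 therefore include genes whose outcome that filter favoured. Egr3 fell by 1.98 (adjusted p = 0.00097) and Ocstamp, a fusion protein of osteoclasts, by 2.38 (0.0010). The median was 0.51, and 0.56 with the genes at 3 or fewer counts in every M0 library set to the bound that 3 counts a library allow (Ctsk, at that floor in M1 too, left out), against -0.0061 over all genes. In M2, 1 was higher, Atp6v0d2 by 1.51 (adjusted p = 0.0388), and 4 were lower, where 4.13% of all genes were DEGs (2% higher, 2.13% lower). The 4 were Egr3 (-2.41, adjusted p = 0.000445), Nr4a1 (-1.33, 0.0458), Tnf (-1.22, 0.0359) and Ccl3 (-1.28, 0.0013).

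**Figure D4:**
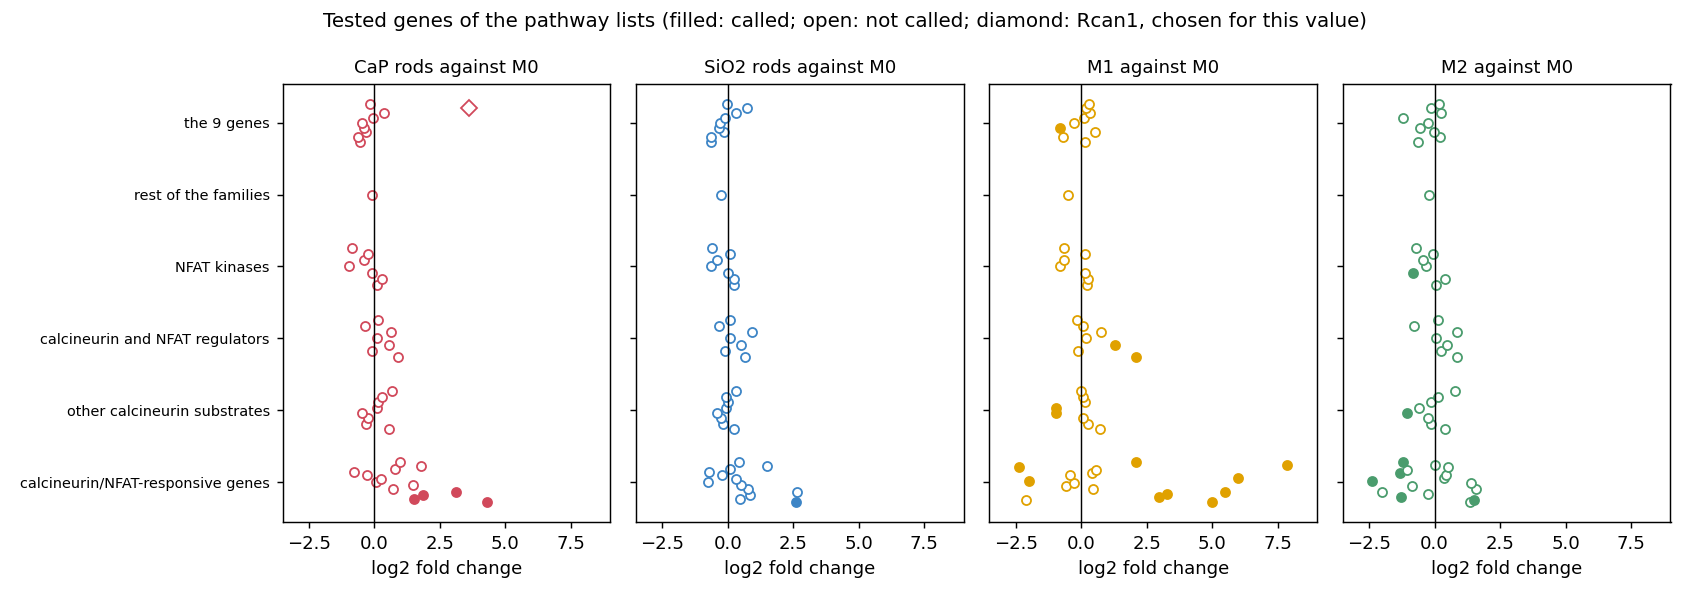
Log2 fold change against M0 of each tested gene of the pathway lists, in panels by stimulus, with DEGs filled and Rcan1 with CaP rods as a diamond at 3.61. The upstream lists hold no filled point with rods, while the responsive genes hold 4 with CaP rods, 1 with SiO2 rods, 9 in M1 and 5 in M2. Of those in M1, Il10, Csf2 and Acp5 passed the filter on low counts only through M1. Ctsk, 1 of the 4 with CaP rods, passed it only through the rod libraries.

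The genes most like Rcan1 over the 15 libraries were not components of the pathway. Likeness was the root-mean-square difference of log2 CPM values, each gene centred on its own mean, among 11310 genes whose mean reached 5 CPM in some group. Csf1, the macrophage colony-stimulating factor, was nearest at 0.542, then Rgs16, a brake on G protein signalling, at 0.690, Bdh2, a dehydrogenase, at 0.793, Sgk1, a kinase induced by serum and glucocorticoids, at 0.844, and the gene model Gm17749 at 0.878. The spread of Rcan1 about its own mean was 1.39 on that scale, the value a flat gene would have. The nearest of the 6 other members that met the level limit was Ppp3r1 at 1.34, close to a flat gene. The measure is not scaled for how much a gene varies, and the own spread of Ppp3r1 was 0.349. A gene that varies so little lies far from Rcan1 whatever its pattern, so this value cannot show whether it moved with Rcan1.

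Csf1 held 0.50, 0.26 and 0.463 CPM in M0 and 3.18, 5.52 and 6.75 CPM with CaP rods. Its mean was 1.02 CPM with SiO2 rods, 0.951 in M1 and 0.611 in M2. CaP replicate 1 held the least Csf1, Rgs16 and Sgk1 of the CaP libraries, as it did for Rcan1, but the most Bdh2, at 28.9 CPM against 22.0 and 20.4 CPM, and the most Gm17749, at 7.71 CPM. Gm17749 differed from Rcan1 in its SiO2 libraries, which held 5.07 to 5.98 CPM against 1.74 to 2.54 CPM in M0. These genes were picked by the same libraries, so their changes are a description.

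**Figure D5:**
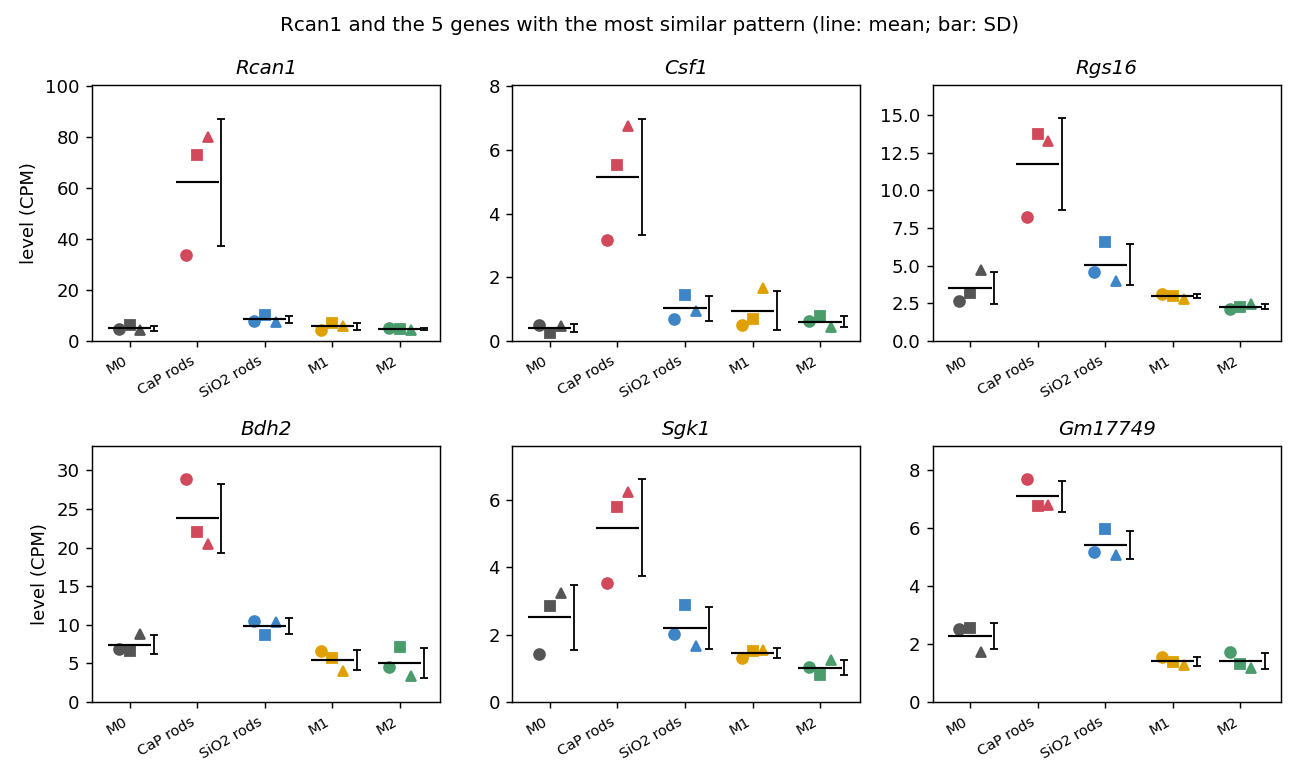
Level in CPM of Rcan1 and the 5 genes most like it in each library, with the mean as a line and the SD as a bar (n = 3). All 6 are highest with CaP rods, Rcan1 at a mean of 62.2 CPM and Csf1 at 5.15 CPM, and Gm17749 is also high with SiO2 rods at 5.41 CPM.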

How the data were processed

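Gene-level counts of 15 poly-A libraries (Smart-seq2, without molecular identifiers) were used as deposited. The authors aligned and quantified reads with STAR and Salmon in nf-core/rnaseq against an Ensembl annotation of GRCm39 (per the labels), and the deposited values are whole-number counts. All columns were mapped to samples (0 unmapped). Symbols and exon lengths came from a GRCm38-based GENCODE annotation, with 51487 of 78317 identifiers matched. Genes passing filterByExpr were fitted with edgeR 4.0.16 (R 4.3.3, limma 3.58.1), TMM and the quasi-likelihood F test with Benjamini-Hochberg adjustment. Rod comparisons used the 9 M0, CaP and SiO2 libraries (16621 genes), and comparisons of M1 and M2 all 15 (16654 genes). SEs came from the F statistic and 95% intervals from its t quantile. CPM use TMM sizes over 15 libraries. Scripts were tested on simulated data. Exact permutation of 3 against 3 cannot go below p = 0.1, so none was used.

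The members and lists were chosen with earlier results of these data known. Named were the 9 genes, the other 4 family members, list genes that were DEGs in at least 1 comparison (up to 6 per list and comparison), and the 5 genes nearest to Rcan1. Kinase, Egr2 and Homer3 names, and the Siglecf, Car4, Ear2 and Cd79b markers, were added beside counts after values were seen. Alternatives were DESeq2 1.42.0, its size factors, no filter, at least 10 counts in every library, other libraries in the model, a replicate block, each library left out and, chosen after seeing the data, the older quasi-likelihood method of edgeR. Chi-square per gene found no library deposited again.

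Same-numbered M0 and M1 libraries deviated together (r of 0.206 to 0.292, each best with its own number). No other pair of groups had each library best with its own number, and no label gives a pairing. Whether the numbers pair the samples was not settled. The block left Ppp3ca as the single DEG between M1 and M0. Protein sequences were not used here, and 1 gene list is not reported here. The intervals given came from the quasi-likelihood fit, so they include the spread between libraries but not that between independent cultures.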

Additional observations from a re-analysis of the deposited data

How the results depend on the processing

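Rcan1 kept its direction under every alternative except leaving out 1 library, which turned the sign of the small M1 and M2 values. In its tested contrasts, those of SiO2 rods, M1 and M2, it was a DEG in no fit. Its CaP contrasts were not tested, so no threshold applies to them. Of the genes tested (the 8 other than Rcan1 where CaP rods were compared, otherwise all 9), 0 were DEGs in all fits of the rod comparisons and of M2 against M0. For M1 against M0 the number was 2 with DESeq2 and 2 with at least 10 counts in every library, in place of 1, and 0 to 2 with a library left out. With only those libraries in the model it stayed at 1, but the gene was Nfatc2 in place of Ppp3ca. For M1 against M2 it was 0 with no filter, 0 with only those libraries in the model and 1 with the older quasi-likelihood method, in place of 3, and 0 to 4 with a library left out. There Ppp3cc was also lost with DESeq2 (adjusted p = 0.0733) and with its size factors in edgeR (0.0586). With at least 10 counts in every library Ppp3cc was not tested. Nfatc2 and Nfat5 passed in each of these fits. Over the pathway lists, DESeq2 gave 2 DEGs for SiO2 against M0 in place of 1, and 3 for CaP against SiO2 in place of 0. The cause was not tested. Over all genes, the 68, 10 and 4 DEGs of the rod comparisons (CaP against M0, SiO2 against M0, CaP against SiO2) became 673, 134 and 16 with DESeq2, 178, 17 and 8 with no filter, and 28, 1 and 1 with the replicate block. With all libraries in the model the former 2 became 109 and 44. The 687 of M2 against M0 became 98 with only those libraries, 1141 with no filter. Leaving out 1 library gave 13 (M0 replicate 1) to 743 (CaP replicate 1) DEGs for CaP against M0, 0 (M0 replicate 1) to 17 (CaP replicate 1) for SiO2 against M0, 1 (CaP replicate 2 or 3, or any SiO2 library) to 3 (M0 or CaP replicate 1) for CaP against SiO2, 1511 (M1 replicate 3) to 3128 (M2 replicate 2) for M1 against M0, 316 (M0 replicate 1) to 1361 (M2 replicate 2) for M2 against M0, and 1764 (M2 replicate 3) to 4270 (M2 replicate 2) for M1 against M2. At depths of 8459643 counts upwards, Ppp3cc and Nfat5 rested on few counts.

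The replicate block gave 1 DEG of 9 between M1 and M2 (Nfatc2), and changed no other count of the 9. Outside M0 with M1, libraries of the compared groups were not each nearest to their own number. Correlations were -0.704 to -0.0572 for M0 with M2 and -0.298 to -0.113 for M1 with M2. In the rod comparisons they had both signs, at -0.244 to 0.525 for M0 with CaP, -0.534 to 0.479 for M0 with SiO2 and -0.118 to 0.604 for CaP with SiO2. Signs of uncalled values turned for Ppp3cc (-0.014) and Ppp3r1 (-0.020) between CaP and SiO2 with the block, and for Ppp3ca (0.0074) there with no filter. Leaving out a library turned the sign of these log2 fold changes, with their ranges: between CaP and M0, Ppp3cc -0.42 to 0.22. Between SiO2 and M0, Rcan3 -0.18 to 0.031, Ppp3cc -0.29 to 0.18. Between CaP and SiO2, Rcan3 -0.21 to 0.017, Nfatc2 -0.17 to 0.24, Nfat5 -0.050 to 0.22, Ppp3ca -0.10 to 0.0054, Ppp3cb -0.28 to 0.087, Ppp3cc -0.32 to 0.29, Ppp3r1 -0.18 to 0.36. Between M1 and M0, Rcan1 -0.0036 to 0.35, Nfat5 -0.057 to 0.32, Ppp3cc -0.13 to 0.40. Between M2 and M0, Rcan1 -0.23 to 0.045, Nfatc3 -0.27 to 0.10. Between M1 and M2, Rcan3 -0.055 to 0.25, Ppp3cb -0.30 to 0.081, Ppp3r1 -0.21 to 0.27.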
